A study of Homo sapiens with 8 samples.

Results

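Compound 5, also named 2,2′-ethylidenebis(4,6-di-tert-butylphenol), is a phenolic antioxidant of the plastics industry, and its effect on gene expression was measured after 24 h against the solvent DMSO. The samples belong to this comparison by their labels, and the comparison itself was chosen with earlier results of these data known. They are 4 of the 8 samples in the series, 2 with compound 5 and 2 with DMSO, and they were compared across the 60230 genes of the count table, of which 13404 had enough counts to be tested. All cells, controls included, were HepG2 cells that overexpress CYP3A4 and are kept under blasticidin selection. HepG2 is an established line from a human hepatocellular carcinoma, and its CYP3A4 derivative serves as a model of hepatic metabolism by this enzyme. Compound 5 was given at its own IC50 from a viability assay, control cells received 0.2% DMSO, and the remaining 4 samples received compound 4 or compound 6, each at its own IC50. The replicates of each group carry the labels day 1 and day 2, and the column of the first compound 5 sample is named as merged from a pair of S numbers, whose meaning is not given in the sources used here. The other columns of these 4 samples carry a single S number. Nothing in the labels says that the replicates were separate cultures. The p-values therefore measure only the spread between replicates over all 8 samples, which were fitted together, and this spread may be technical.

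The mRNA libraries held between 9955207 and 13308975 counts on genes in these 4 samples, so that 3 counts, the smallest amount regarded as detectable, was worth 0.235 to 0.295 CPM (read counts per library size, after correction by the TMM factors of edgeR). These limits cover counting error only. The counts of replicates differed by more than sampling noise (chi-square per degree of freedom, 5.70 for DMSO and 6.62 for compound 5), and no library was counted as a duplicate. For compounds 4 and 6, whose replicates also enter the estimate of the spread, the values were 18.0 and 9.39. All 9 hepatocyte markers were detected, with summed levels of 39541 and 41353 CPM in DMSO and 32866 and 33040 CPM after compound 5. Of the markers of other cell types, 5 of 7 for fibroblasts and stellate cells, 2 of 5 for endothelial cells, 3 of 5 for leukocytes and 2 of 4 for cholangiocytes were at 0 in all 4 samples. The summed levels of these lists in DMSO and after compound 5 were 17.5 to 21.6 and 10.7 to 11.6 CPM for fibroblasts, 0.904 to 1.28 and 0.864 to 1.28 CPM for endothelial cells, 27.4 to 38.6 and 36.3 to 39.6 CPM for leukocytes, and 219 to 242 and 267 to 285 CPM for cholangiocytes. What part these shifts had in the results was not tested. All samples were of a single cell line, and the cholangiocyte sums came from KRT19 and SOX9 alone. In bulk RNA, fewer cells that express a gene and less of its RNA per cell cannot be told apart.

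As background, hepatocytes meet foreign phenols with several transcription programs. Nuclear receptors such as PXR raise cytochromes P450, NRF2 raises glutathione synthesis, and MTF1 raises metallothioneins. Stress in the endoplasmic reticulum or a lack of amino acids slows translation through phosphorylation of eIF2 alpha, which lets ATF4 and its targets rise (the integrated stress response). Sterols returning to the endoplasmic reticulum silence the SREBP factors, which otherwise keep cholesterol and fatty acid synthesis running. Dividing cells transcribe the genes of DNA replication under E2F factors and those of mitosis later in the cycle, many of them through an element named the cell cycle homology region.

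With compound 5, 1857 genes rose (13.9% of the genes tested) and 1906 fell (14.2%) at a Benjamini-Hochberg adjusted p under 0.05 in the quasi-likelihood test of edgeR. At least 2-fold changes were reached by 434 genes that rose and 523 that fell, at least 4-fold changes by 87 and 75, and at least 8-fold changes by 30 and 19. The median log2 fold change was 0.65 among the genes that rose, -0.72 among those that fell and -0.03 over all genes tested. Against the library size after TMM correction, the genes that rose summed to 16.6% in DMSO and 27.8% with compound 5. Those that fell summed to 13.6% and 8.74%. These are not shares of the reads, since the TMM factors were 1.021 and 1.039 in DMSO and 0.958 and 0.958 with compound 5. The split depended on the scaling of the libraries, since 53.1% of the calls were rises with RLE scaling, 36.6% with upper-quartile scaling and 33.3% with library-size scaling, against 49.3% with TMM. With DESeq2, which also differs in its test and in the genes tested, 59.2% were rises. Without DMSO replicate 1, DMSO replicate 2, compound 5 replicate 1 or compound 5 replicate 2, in this order, 894, 1109, 976 and 1123 genes rose and 791, 898, 704 and 1016 fell. Further counts without a single library follow the same order, and in such a fit the lone sample of a group is assumed to vary like the other groups.

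**Figure D1:**
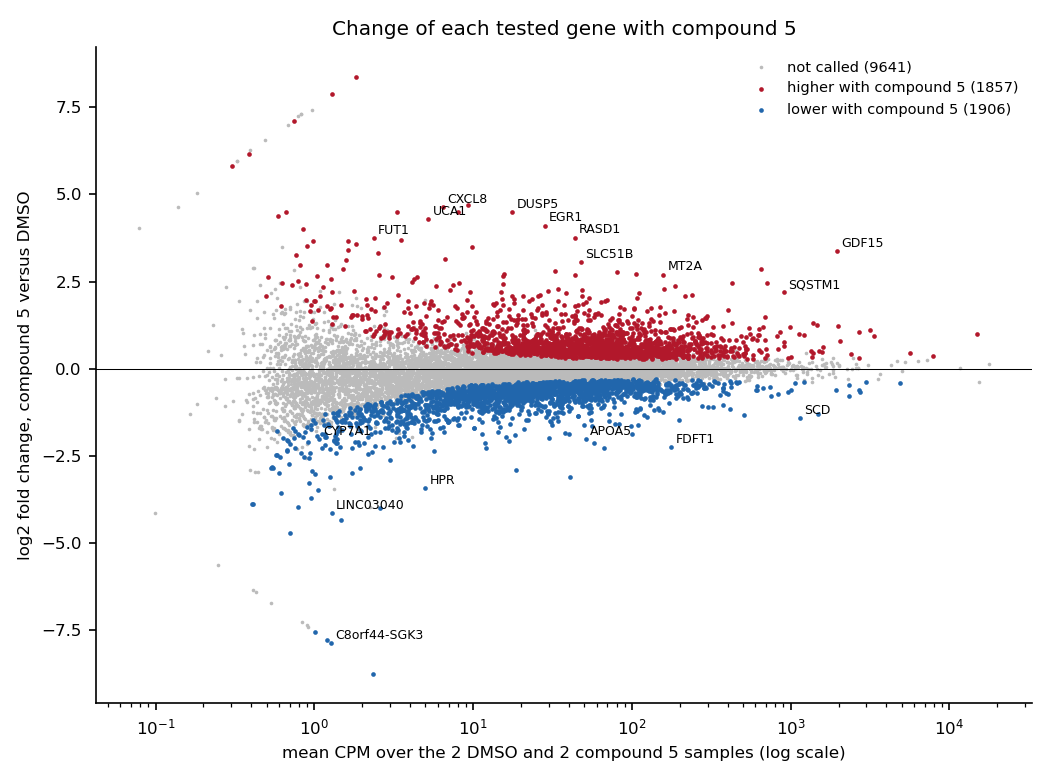
Log2 fold change of compound 5 versus DMSO (vertical axis) against the mean CPM over the 4 samples on a log scale (horizontal axis), with 1 point per tested gene. The 1857 genes called higher (red) and the 1906 called lower (blue) spread over all levels of expression, with DUSP5 and CXCL8 near the top and HPR and LINC03040 toward the bottom.

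Among called genes with a symbol, an average of 1 CPM or more and no overlap between the groups, the highest changes fell on genes of several kinds. C5AR1, the receptor of the complement fragment C5a (chromosome 19, 47290023 to 47322066, GRCh38), was at 1.08 and 0.329 CPM in the DMSO samples and 17.4 and 18.3 CPM in the compound 5 samples, a log2 fold change of 4.70 ± 0.85 (SE, edgeR adjusted p = 0.00294). KNG1, the precursor of bradykinin, was nearly undetected in DMSO at 0.295 and 0.247 CPM and stood at 5.32 and 7.3 CPM after compound 5. KLHDC7B reached 16 and 14.8 CPM from 1.18 and 0.247. RASD1, a Ras-like protein induced by glucocorticoids, reached 73.2 and 90.0 CPM from 5.91 and 6.08. FUT1, the fucosyltransferase that makes the H antigen, was at 0.492 and 0.164 CPM in DMSO and 4.67 and 4.16 CPM after compound 5. CLCF1, a ligand of the CNTF receptor, rose from 0.394 and 0.575 to 4.77 and 8.24 CPM. All of these were low or very low in control cells. Groups without overlap were a condition of this ranking, and all 3763 genes called had them.

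Genes at the other end of the same ranking lost most of their signal. LINC03040, a long noncoding RNA, was at 2.76 and 2.14 CPM in DMSO and 0.183 and 0.0785 CPM after compound 5. The antisense transcript CCDC183-AS1 was at 1.97 and 2.55 CPM in DMSO against 0.367 and 0.157 CPM, and EPN3, an epsin of clathrin-coated vesicles, at 3.64 and 2.55 CPM in DMSO against 0.183 and 0.55 CPM. The read-through transcript C8orf44-SGK3 had 2.36 and 2.71 CPM in DMSO and no count with compound 5, at least 20.0-fold lower when 3 counts over the group are taken as the floor. The sequence it shares with other genes was not measured, and its reads may have been assigned to genes that it overlaps. HPR, the haptoglobin-related gene, fell from 10.1 and 8.14 to 0.733 and 0.942 CPM, but 39.0% of its 31-base words also occur in other genes, so that reads may have been split with its neighbour HP. Among called genes, the largest losses in CPM were those of TF, AFP, PEG10, APOA1 and AHSG. The call of TF was lost without each of the 4 libraries (lowest edgeR adjusted p = 0.0634, without compound 5 replicate 2), and those of APOA1 and AHSG were lost without DMSO replicate 1 and without compound 5 replicate 1. PEG10, a retrotransposon-derived imprinted gene, went from 1992 and 2217 to 859 and 847 CPM (-1.30 ± 0.16 on the log2 scale, edgeR adjusted p = 3.94e-04).

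**Figure D2:**
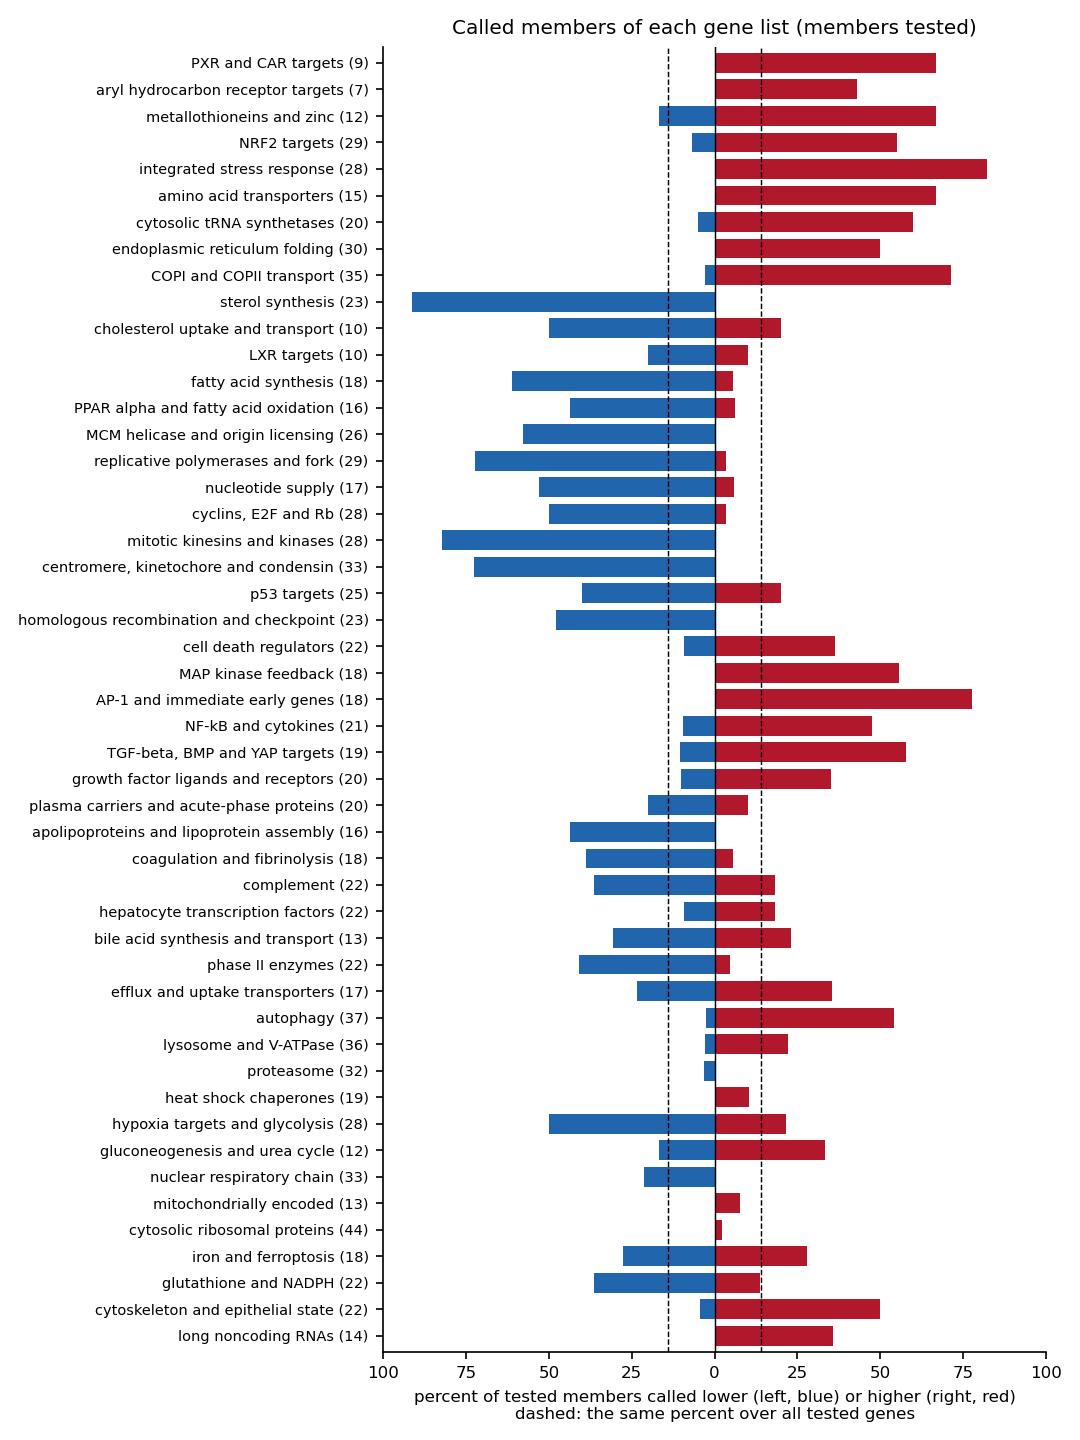
Share of the tested members of each gene list that were called lower (left, blue) or higher (right, red) with compound 5, in percent, with the number of tested members in parentheses. The dashed lines mark the shares over all tested genes, 13.9% higher and 14.2% lower. The bars for the integrated stress response (23 of 28 higher) and sterol synthesis (21 of 23 lower) reach farthest to either side.

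The integrated stress response list had the highest share of members called higher among the lists. Of 28 tested members, 23 were called higher and 0 lower, with a median log2 fold change of 1.32, against -0.03 over all genes. GDF15, a secreted stress hormone that acts on appetite centres (chromosome 19, 18374731 to 18389176, GRCh38), was at 393 and 294 CPM in DMSO and 3368 and 3763 CPM after compound 5. Its log2 fold change was 3.38 ± 0.29 (edgeR adjusted p = 8.66e-05), and its gain in CPM was the largest among protein-coding genes called. ATF4, the central activator of this response, was at 407 and 407 CPM in DMSO against 697 and 762 CPM (0.84 ± 0.12, edgeR adjusted p = 8.91e-04). DDIT3 (CHOP), a partner of ATF4 linked to cell death, was at 10.3 and 6.25 CPM in DMSO and 56.7 and 56.9 CPM after compound 5. PPP1R15A (GADD34), the phosphatase subunit that reverses eIF2 alpha phosphorylation, rose from 29.6 and 25.9 to 168 and 199 CPM (2.73 ± 0.27). In each of these genes the compound 5 samples lay close together, and, as in every gene called, the groups did not overlap. TRIB3, a pseudokinase that restrains ATF4, rose by 1.69 on the log2 scale, ATF3, a repressor of the same pathway, by 1.82 and ADM2, a hormone of the calcitonin family, by 2.13. ATF5 was not called, at 26.7 and 24.9 CPM in DMSO against 27.7 and 28.3 CPM. CHAC1 was listed at 0 in all 4 samples. For ASNS and ATF4, 42.5% and 29.7% of the 31-base words also occur in other genes. CEBPB was unevenly raised, at 72.4 and 61.4 CPM in DMSO and 112 and 218 CPM after compound 5, and its call was lost without DMSO replicate 2 (edgeR adjusted p = 0.0572) and without compound 5 replicate 2 (edgeR adjusted p = 0.0600). Leaving out single libraries gave between 19 and 21 members called higher.

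The promoters of 2 members of this list are shown because they hold the core of the site that ATF4 shares with CEBP factors (the letters TGATGNAA, searched on both strands and marked in capitals). The sequences run from 250 bases before to 50 bases after the transcription start, 5′ to 3′ on the strand of the gene, and were taken from RefSeq on GRCh38.p14 (ASNS, chr7:97872359-97872658, minus strand, and SLC3A2, chr11:62881449-62881748, plus strand).
ASNS: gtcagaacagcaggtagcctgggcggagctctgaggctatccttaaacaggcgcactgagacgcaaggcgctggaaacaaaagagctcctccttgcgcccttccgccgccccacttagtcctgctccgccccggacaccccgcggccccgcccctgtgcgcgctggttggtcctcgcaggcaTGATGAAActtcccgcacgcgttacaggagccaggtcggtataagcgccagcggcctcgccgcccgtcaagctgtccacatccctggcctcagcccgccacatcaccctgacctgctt
SLC3A2: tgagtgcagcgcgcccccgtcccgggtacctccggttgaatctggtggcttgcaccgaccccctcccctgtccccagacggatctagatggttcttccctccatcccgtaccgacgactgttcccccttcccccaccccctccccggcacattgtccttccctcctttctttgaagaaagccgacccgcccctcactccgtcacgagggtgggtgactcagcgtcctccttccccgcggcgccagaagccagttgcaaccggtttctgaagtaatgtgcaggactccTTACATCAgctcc
In the ASNS promoter the match begins 68 bases before the start, and in the SLC3A2 promoter it lies after the start on the opposite strand. Of the 25 promoters found for the list, 5 held the core (20.0%), whereas 3.67% of all 27305 promoters and 1.63% of those of the genes tested did. A match is a description of letters and not a site of binding.

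Many genes that bring amino acids into the cell or load them onto tRNA were called higher as well. SLC3A2, the heavy chain that carries several amino acid transporters to the membrane, was at 237 and 201 CPM in DMSO and 1152 and 1257 CPM after compound 5 (2.46 ± 0.18, edgeR adjusted p = 3.71e-05). SLC7A11, its partner in cystine import, was at 55 and 53.3 CPM in DMSO against 311 and 213 CPM (2.27 ± 0.24, edgeR adjusted p = 2.00e-04). The neutral amino acid transporter SLC38A2 was at 859 and 878 CPM in DMSO against 2128 and 2003 CPM, and the cationic transporter SLC7A1 at 122 and 126 CPM in DMSO against 300.4 and 269 CPM. Among 15 amino acid transporters tested, 10 were called higher and 0 lower, with a median log2 fold change of 0.97. ASNS, which makes asparagine, rose from 63.8 and 56.8 to 191 and 213 CPM (1.74 ± 0.13). Of 20 cytosolic tRNA synthetases, 12 were called higher and 1 lower, with a median of 0.49. GARS1, which charges glycine, was at 234 and 221 CPM in DMSO against 532 and 520.4 CPM, SARS1 for serine at 86.8 and 81.5 CPM in DMSO against 181 and 177 CPM, and CARS1 for cysteine at 51.6 and 53.8 CPM in DMSO against 115 and 115 CPM. The 1 lower call was lost under each left-out library and with the replicate block.

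Of 30 folding and degradation genes of the endoplasmic reticulum tested, 15 were called higher and 0 lower, with a median of 0.33. HERPUD1, part of the degradation machinery for misfolded proteins (chromosome 16, 56932048 to 56944863, GRCh38), was at 76.5 and 84.5 CPM in DMSO and 236 and 248 CPM after compound 5 (1.59 ± 0.12, edgeR adjusted p = 5.75e-05). DNAJB9, a cochaperone of the lumen, was at 20.2 and 22.6 CPM in DMSO against 80.0 and 73.9 CPM (1.84 ± 0.14). Of the stress sensors, EIF2AK3 (PERK) rose from 33.7 and 33.8 to 76.8 and 63.7 CPM and ERN1 (IRE1 alpha) from 25.4 and 25.7 to 83.2 and 80.8 CPM. ATF6, a sensor that is cleaved to a transcription factor and was named after its values were seen, was at 39.4 and 45.1 CPM in DMSO against 57.7 and 55.3 CPM (0.42 ± 0.11), a call kept only without DMSO replicate 2 among the left-out libraries and lost with library-size scaling (edgeR adjusted p = 0.0641). XBP1, the mRNA that ERN1 splices, was not called (-0.30 ± 0.15, edgeR adjusted p = 0.157), and the values sum its spliced and unspliced forms. HSPA5 (BiP), the main chaperone, rose by 0.49 ± 0.10, and its call was lost without DMSO replicate 1 (edgeR adjusted p = 0.0514). The letters CCACG, part of the unfolded protein response elements, were found on either strand in 19 of 28 promoters of this list (67.9%) and in 50.3% of those of the genes tested. Of 35 genes for COPI and COPII vesicles, 25 were called higher and 1 lower, with a median of 0.46, and without single libraries 12, 16, 13 and 15 were called higher. SEC24D, a cargo adaptor of COPII, was at 92.1 and 100.4 CPM in DMSO against 204 and 208 CPM (1.10 ± 0.12), SEC16A at 95.8 and 109 CPM in DMSO against 195 and 180.2 CPM, and the Golgi matrix protein GOLGA2 at 64.1 and 71.3 CPM in DMSO against 142 and 131 CPM.

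Most immediate early genes and some feedback inhibitors of MAP kinases were called higher at 24 h. EGR1, a zinc finger factor induced by growth factors (chromosome 5, 138465490 to 138469315, GRCh38), was at 3.05 and 3.12 CPM in DMSO and 51.1 and 55.8 CPM after compound 5, a log2 fold change of 4.11 ± 0.35 (edgeR adjusted p = 9.16e-05). DUSP5, a nuclear phosphatase that inactivates ERK, was at 1.77 and 1.23 CPM in DMSO against 33.9 and 33.4 CPM (4.50 ± 0.47, edgeR adjusted p = 1.76e-04). The receptor tyrosine kinase EPHA2 was at 59.5 and 60.5 CPM in DMSO against 292 and 332 CPM, and IER3, an early response gene with a role in survival, at 93.1 and 86.6 CPM in DMSO against 379 and 400.3 CPM. Of the 18 AP-1 and immediate early genes tested, 14 were called higher and 0 lower (median 1.10), and of the 18 MAP kinase feedback genes 10 and 0 (median 0.91). JUN rose by 1.07, JUNB by 1.23, FOSL1 by 1.54, KLF6 by 1.43 and the small Maf proteins MAFF and MAFK by 1.57 and 2.16 on the log2 scale. JUND, which is present in resting cells, was at 97.7 and 85 CPM in DMSO against 76.3 and 105 CPM and was not called. SPRY4, an inhibitor of receptor signalling, rose by 1.55 and DUSP6 by 0.87, whereas the ERK-responsive factors ETV4 and ETV5 were not called (0.12 ± 0.10 and 0.17 ± 0.11). The AP-1 letters TGANTCA were found in 1 of 15 promoters of the feedback list (6.67%), near the 4.35% among the genes tested.

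The EGF receptor ligands AREG and EREG and the chemokines CCL20 and CXCL8 rose. AREG (amphiregulin) was at 1.67 and 1.56 CPM in DMSO and 16.1 and 20.1 CPM after compound 5 (3.48 ± 0.44, edgeR adjusted p = 4.64e-04), and EREG (epiregulin) at 22 and 19.3 CPM in DMSO against 127 and 153 CPM (2.76 ± 0.28). HBEGF, another such ligand, was at 1.77 and 1.48 CPM in DMSO against 3.94 and 3.93 CPM (1.28 ± 0.31), a call lost with DESeq2 (adjusted p = 0.0627) and without each of the 4 libraries. CCL20, which attracts lymphocytes and dendritic cells, was at 143 and 119 CPM in DMSO against 752 and 701 CPM (2.47 ± 0.15, edgeR adjusted p = 2.76e-05). CXCL8 (interleukin 8) was at 0.394 and 0.575 CPM in DMSO and 9.62 and 15.3 CPM after compound 5. Of 21 NF-kB and cytokine genes tested, 10 were called higher and 2 lower with a median of 0.35, and 4, 4, 5 and 4 were called higher without single libraries. The NF-kB feedback genes NFKBIA (-0.22 ± 0.13) and TNFAIP3 (-0.01 ± 0.15) were not called, and BIRC3, an inhibitor of apoptosis, fell from 9.45 and 12.4 to 3.02 and 4.95 CPM. Of 20 growth factor ligands and receptors, 7 were called higher and 2 lower with a median of 0.37 (4, 3, 4 and 4 higher without single libraries). KLB, the co-receptor of FGF19 and FGF21, fell from 80.1 and 81.4 to 29.8 and 28.3 CPM (-1.47 ± 0.16, edgeR adjusted p = 2.01e-04). Among 19 targets of TGF-beta, BMP and YAP, 11 were called higher and 2 lower (median 0.49), and without single libraries 6, 5, 6 and 6 were called higher. INHBE, an activin subunit made in liver, rose from 29.3 and 24.8 to 105 and 98.4 CPM, whereas CCN2 (-0.22 ± 0.15) and ID1 (0.14 ± 0.17) were not called.

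**Figure D3:**
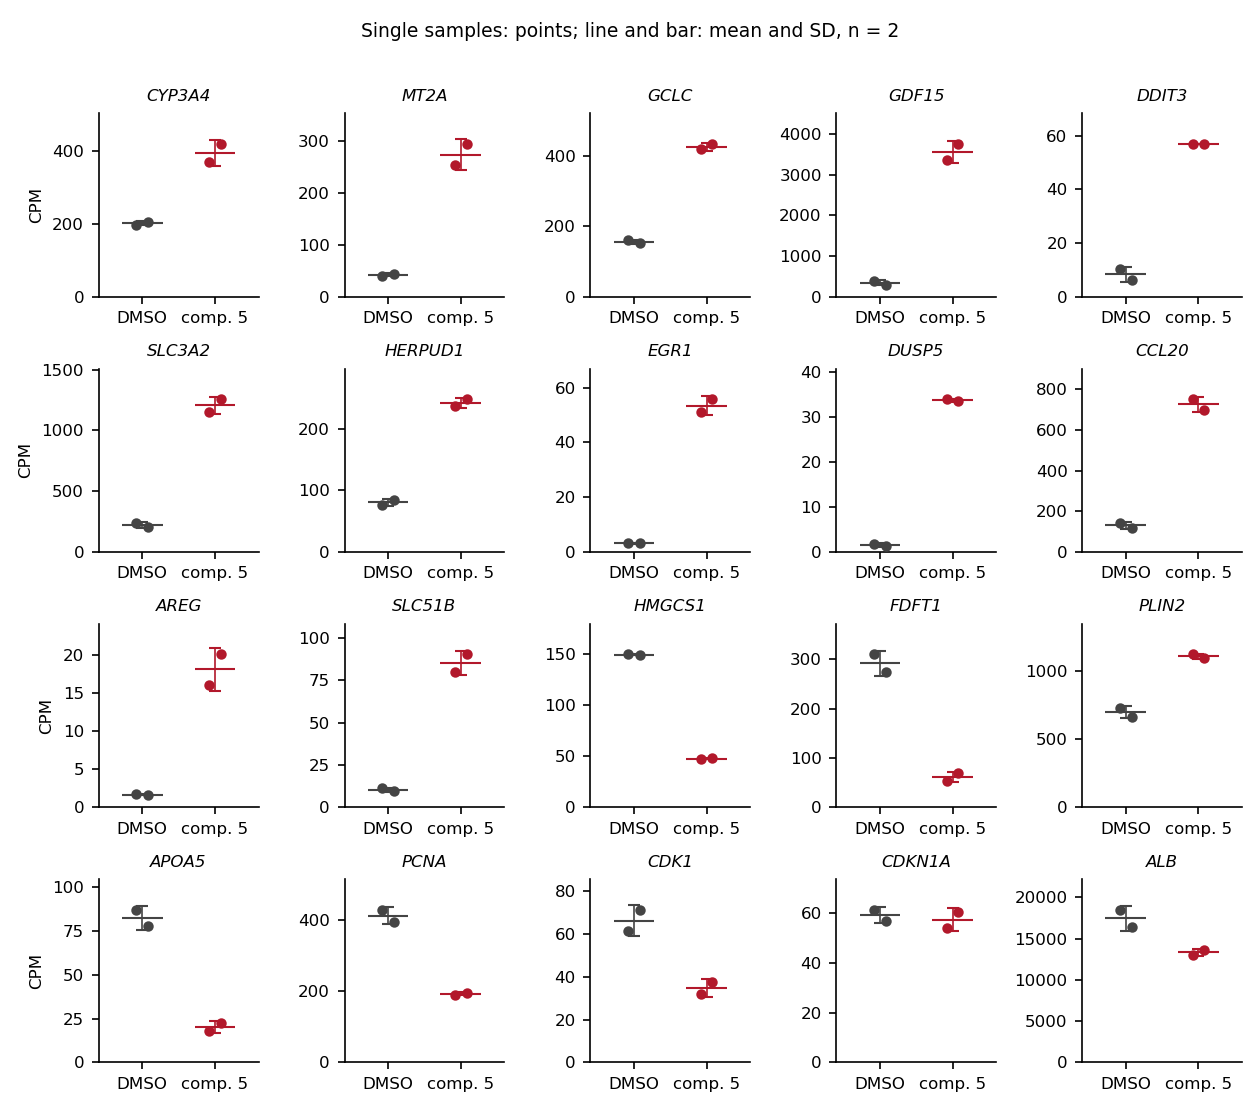
CPM of 20 genes in the single samples (points) with the mean and SD of each group (line and bar, n = 2), DMSO in grey and compound 5 in red, each panel on its own linear axis from 0. GDF15 stands between 3368 and 3763 CPM after compound 5 and at most 393 CPM with DMSO, FDFT1 shows the opposite order, and the points of CDKN1A overlap between the groups.

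Nearly the whole pathway of cholesterol synthesis fell. Of 23 tested sterol synthesis genes, 21 were called lower and 0 higher, with a median log2 fold change of -1.27, and 20 were called lower whichever library was left out. FDFT1, the squalene synthase that commits the pathway to sterols, was at 310.1 and 274 CPM in DMSO and 53.3 and 68.7 CPM after compound 5 (-2.26 ± 0.20, edgeR adjusted p = 9.50e-05). MSMO1, which removes methyl groups from lanosterol products, was at 122 and 99 CPM in DMSO against 20.4 and 25.5 CPM (-2.26 ± 0.20). IDI1, which isomerizes isopentenyl diphosphate, was at 97.6 and 89.3 CPM in DMSO against 18.1 and 24.5 CPM. HMGCS1, which makes HMG-CoA early in the pathway, was at 149 and 148 CPM in DMSO against 46.7 and 47.7 CPM (-1.66 ± 0.13). TM7SF2, a sterol reductase late in the pathway, fell from 51.1 and 45 to 11.3 and 13 CPM. SREBF2, the regulator itself, fell by 0.48 on the log2 scale, a call that was lost without compound 5 replicate 1 (edgeR adjusted p = 0.0622), and SREBF1 was not called (-0.02 ± 0.11). The letters CACCCCAC, a core of the sterol regulatory element, were found in 1 of 19 promoters of the list (5.26%) and in 2.51% of those of the genes tested.

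Of the genes of cholesterol uptake and transport, 50% were called lower and 20% higher, where 14.2% and 13.9% of all genes tested were. NPC1L1, a sterol transporter of the cell surface, fell from 47.7 and 49.9 to 17.6 and 20.1 CPM, and STARD4, which carries cholesterol between membranes, from 35.7 and 34.5 to 14.2 and 17.3 CPM. Of the 10 genes of this list, 2 were called higher and 5 lower (median -0.38), and without single libraries 1, 2, 1 and 2 were called higher. NPC1, which moves cholesterol out of lysosomes, was among those called higher, and SCARB1, a receptor for HDL, among those called lower. MYLIP, a ubiquitin ligase induced by LXR, was called lower (-1.22 ± 0.27), but not without DMSO replicate 2 (edgeR adjusted p = 0.0931) or compound 5 replicate 2 (edgeR adjusted p = 0.0713). Among 10 LXR targets, 1 was called higher and 2 lower (median -0.17), and without single libraries 1, 0, 1 and 0 were called lower, and 1 with the replicate block.

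**Figure D4:**
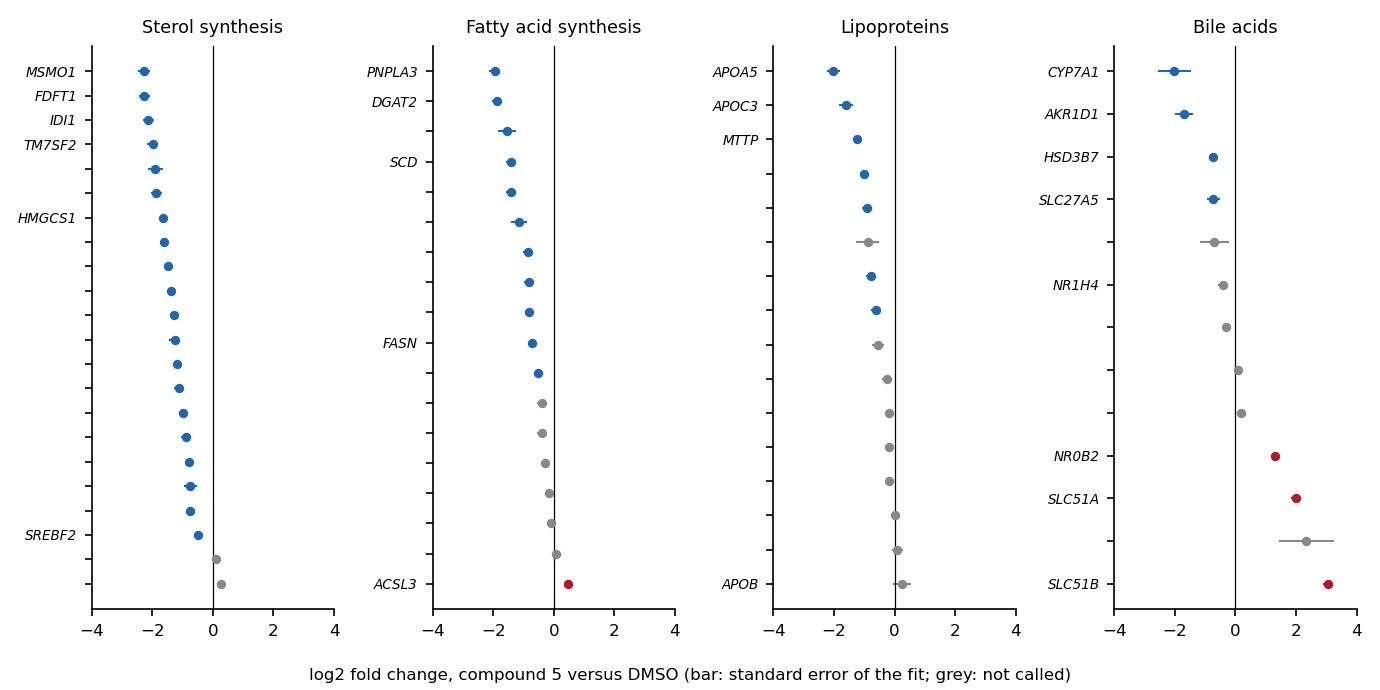
Log2 fold change of compound 5 versus DMSO for the tested members of 4 lists (points, with the standard error of the fit as bars, labelled where the text describes the gene, and without genes that are not reported), called lower in blue, called higher in red and not called in grey. The sterol synthesis members lie left of 0 with few exceptions, APOA5 lies far left among the lipoprotein genes, and SLC51A and SLC51B stand to the right in the bile acid panel.

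Many fatty acid synthesis and lipoprotein genes fell too. Of 18 fatty acid and triglyceride synthesis genes, 11 were called lower and 1 higher, with a median of -0.77. SCD, the stearoyl-CoA desaturase, was at 1672 and 1650.2 CPM in DMSO and 642 and 599 CPM after compound 5 (-1.42 ± 0.16, edgeR adjusted p = 2.68e-04), and FASN, the fatty acid synthase, at 983 and 1079 CPM in DMSO against 624 and 627 CPM (-0.72 ± 0.10). DGAT2, which completes triglycerides, was at 66.7 and 59.6 CPM in DMSO against 13.7 and 20.4 CPM, and PNPLA3, a lipid droplet lipase, at 23.2 and 28.3 CPM in DMSO against 6.32 and 6.99 CPM. PLIN2, the coat protein of lipid droplets, moved the other way, from 733 and 666 to 1123 and 1097 CPM (0.67 ± 0.10, edgeR adjusted p = 8.91e-04). It was the only one of 16 PPAR alpha and fatty acid oxidation genes called higher, beside 7 called lower (2, 6, 4 and 3 without single libraries) and a median of -0.18. EHHADH, a peroxisomal oxidation enzyme, fell by 3.01-fold and the fatty acid binding protein FABP1 from 421 and 323 to 188 and 166 CPM, while CPT1A, the gate to mitochondrial oxidation, was not called (0.10 ± 0.12). APOA5, which promotes triglyceride clearance, was at 86.9 and 77.6 CPM in DMSO against 17.8 and 22.7 CPM (-2.02 ± 0.22, edgeR adjusted p = 2.32e-04). APOC3 fell from 53.7 and 40.4 to 14.6 and 16.1 CPM and MTTP, which loads lipid onto apolipoprotein B, from 155 and 140.0 to 58.6 and 65.4 CPM. APOB itself was not called, with 5679 and 7468 CPM in DMSO and 8629.6 and 6920.1 CPM after compound 5. Of 16 apolipoprotein and assembly genes, 7 were called lower and 0 higher, with a median of -0.58.

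Both subunits of a bile acid exporter rose, while other genes of the bile acid list were called lower. SLC51B, the beta subunit of the basolateral exporter OST, was at 11.2 and 9.45 CPM in DMSO and 80.3 and 90.4 CPM after compound 5 (3.05 ± 0.17, edgeR adjusted p = 1.98e-05). SLC51A, the alpha subunit (chromosome 3, 196211487 to 196243178, GRCh38), was at 9.65 and 9.12 CPM in DMSO against 33.3 and 41.3 CPM (1.99 ± 0.16, edgeR adjusted p = 7.52e-05). NR0B2 (SHP), a repressor induced by the bile acid receptor FXR, rose from 76.5 and 70.4 to 171 and 194 CPM, and NR1H4, the gene of FXR, was not called (-0.41 ± 0.15, edgeR adjusted p = 0.0718). CYP7A1, the rate-limiting enzyme of bile acid synthesis, was near the detection limit at 1.38 and 2.05 CPM in DMSO against 0.275 and 0.55 CPM, and its call (-2.01 ± 0.54) was lost without DMSO replicate 2 (edgeR adjusted p = 0.133) and without compound 5 replicate 1 (edgeR adjusted p = 0.125). AKR1D1, a reductase of bile acid precursors, fell from 5.91 and 5.92 to 1.47 and 2.12 CPM. Of 13 tested genes of this list, 3 were called higher and 4 lower (CYP7A1, AKR1D1, HSD3B7 and SLC27A5, median -0.31), and without single libraries 3, 3, 2 and 3 were called lower.

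CYP3A4, the enzyme overexpressed in these cells (chromosome 7, 99756960 to 99784265, minus strand, GRCh38), was at 198 and 207 CPM in DMSO and 371 and 421 CPM after compound 5, a log2 fold change of 0.97 ± 0.13 (edgeR adjusted p = 7.24e-04). The table does not separate reads of the introduced copy from those of the chromosomal gene, and 19.6% of the 31-base words of CYP3A4 also occur in other genes. CYP2B6, another target of PXR and CAR, rose from 5.22 and 3.37 to 15.8 and 9.81 CPM and POR, the reductase that feeds electrons to cytochromes P450, from 527 and 493 to 719 and 778 CPM, whereas NR1I2, the gene of PXR, was not called (-0.10 ± 0.12). Of 9 PXR and CAR targets tested, 6 were called higher and 0 lower (median 0.55, and 4, 4, 3 and 5 higher without single libraries). AHR rose from 179 and 176 to 336 and 361 CPM (0.98 ± 0.11, with 31.6% of its 31-base words shared with other genes), and its classical target CYP1A1 stood at 4.14 and 3.21 CPM in DMSO against 11.5 and 7.46 CPM, a call that was lost without DMSO replicate 2 (edgeR adjusted p = 0.0840) and without compound 5 replicate 1 (edgeR adjusted p = 0.0966). Of 7 aryl hydrocarbon receptor genes, 3 (AHR, ARNT and CYP1A1) were called higher and 0 lower (median 0.21, and 2, 1, 1 and 2 without single libraries). The call of ARNT was lost without each of the 4 libraries, with DESeq2 (adjusted p = 0.0631) and with upper-quartile and library-size scaling. Of 22 phase II enzymes, 9 were called lower and 1 higher (median -0.37), but 3, 5, 2 and 4 were called lower without single libraries and 4 with DESeq2. UGT2B4 was the member called higher, from 12.5 and 11.4 to 22.2 and 24.5 CPM, and GSTA4, a glutathione transferase for lipid aldehydes, fell from 11.3 and 9.45 to 3.12 and 4 CPM. Among 17 efflux and uptake transporters, 6 were called higher and 4 lower (ABCC6, SLCO2B1, SLCO4C1 and SLC22A9, median 0.31). ABCC2, the canalicular exporter of conjugates, rose from 575 and 634 to 1374 and 1383 CPM (1.19 ± 0.13, edgeR adjusted p = 2.03e-04), and ABCC6 fell from 46.3 and 41.5 to 19.8 and 22.1 CPM.

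Several NRF2 targets of glutathione synthesis and thioredoxin rose, and others did not. GCLC, the catalytic subunit of glutamate-cysteine ligase, was at 159 and 151 CPM in DMSO and 419 and 434 CPM after compound 5 (1.46 ± 0.13, edgeR adjusted p = 9.29e-05), and its modifier GCLM at 50.4 and 52.7 CPM in DMSO against 128 and 141 CPM. TXNRD1, the thioredoxin reductase, was at 363 and 362 CPM in DMSO against 1029 and 989 CPM (1.48 ± 0.14), and OSGIN1, an oxidative stress gene, at 45.9 and 39.2 CPM in DMSO against 165 and 181 CPM (2.03 ± 0.12, edgeR adjusted p = 1.98e-05). NFE2L2, the gene of NRF2, rose from 235 and 237 to 364 and 420.3 CPM. In contrast, HMOX1 (heme oxygenase) was at 127 and 119.5 CPM in DMSO against 91.6 and 101 CPM, slightly lower with compound 5, and its call was lost under every left-out library (lowest edgeR adjusted p = 0.0632, without compound 5 replicate 2). NQO1, a quinone reductase named after its values were seen, was not called (0.12 ± 0.11). Of 29 NRF2 targets, 16 were called higher and 2 lower, with a median of 0.36. The antioxidant response element core TGANNNNGC was found in 12 of 22 promoters of this list (54.5%) and in 43.4% of those of the genes tested. Of 22 glutathione and NADPH genes, 3 were called higher (GCLC, GCLM and GSR) and 8 lower (median -0.30, and 3, 5, 3 and 7 lower without single libraries), with IDH1, a cytosolic source of NADPH, at 578 and 569 CPM in DMSO against 263 and 254 CPM and catalase (CAT) at 130.4 and 129 CPM in DMSO against 73.1 and 85.3 CPM. Iron genes were divided, with 5 called higher (FTL, SLC40A1, HAMP, BMP6 and AIFM2) and 5 lower (SLC11A2, ACO1, HFE, TFR2 and NCOA4) of 18 (median 0.01), and without single libraries 2, 2, 1 and 3 were called higher and 1, 2, 1 and 2 lower. FTL, AIFM2, SLC11A2 and ACO1 lost their calls without each of the 4 libraries, FTL also with the replicate block (edgeR adjusted p = 0.0507), and only HAMP and TFR2 kept theirs each time. HAMP (hepcidin), the hormone that limits iron export, rose from 26.2 and 17.5 to 60.9 and 62.3 CPM (2.83-fold, edgeR adjusted p = 3.02e-04), and GPX4, the enzyme that guards against ferroptosis, was not called (-0.20 ± 0.11).

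Metallothioneins, small cysteine-rich proteins that bind zinc and copper, were called higher in the 7 members that had enough counts to be tested, of 9 listed. MT1H and MT1M among them had at most 3 counts in either DMSO sample, so they could be tested only through the treated samples. With at least 10 counts required in every sample, 5 metallothioneins were tested and called higher, without these genes, and with DESeq2 6 were. The call of MT1H was lost without DMSO replicate 1 and without compound 5 replicate 2. MT2A was at 40.1 and 43.9 CPM in DMSO and 253 and 294 CPM after compound 5 (2.70 ± 0.26, edgeR adjusted p = 1.19e-04). MT1E was at 24.7 and 31.4 CPM in DMSO against 92.6 and 128 CPM, MT1G at 15.6 and 21.3 CPM in DMSO against 70.5 and 86.4 CPM, MT1X at 8.47 and 9.86 CPM in DMSO against 31.5 and 39.7 CPM, and MT1F at 10.5 and 12.7 CPM in DMSO against 32.6 and 36.7 CPM. The genes lie beside each other on chromosome 16 and resemble each other, so that reads may have been divided among them. MTF1, their zinc-sensing activator, was not called (0.35 ± 0.14, edgeR adjusted p = 0.0755). Of 12 tested metallothionein and zinc genes, 8 were called higher (6 with at least 10 counts in every sample) and 2 lower, with a median of 1.76. The zinc exporter SLC30A1, named after its values were seen, was among those called higher (1.06 ± 0.10), and the members called lower, SLC30A10 and SLC39A10, also named afterwards, carry manganese and zinc.

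The promoters of MT2A (chr16:56608334-56608633, plus strand) and MT1X (chr16:56682220-56682519, plus strand), from RefSeq on GRCh38.p14 and in the same window as above, are shown because they hold several copies of the metal response element core. The capitals mark the letters TGCACNC or TGCGCNC on either strand.
MT2A: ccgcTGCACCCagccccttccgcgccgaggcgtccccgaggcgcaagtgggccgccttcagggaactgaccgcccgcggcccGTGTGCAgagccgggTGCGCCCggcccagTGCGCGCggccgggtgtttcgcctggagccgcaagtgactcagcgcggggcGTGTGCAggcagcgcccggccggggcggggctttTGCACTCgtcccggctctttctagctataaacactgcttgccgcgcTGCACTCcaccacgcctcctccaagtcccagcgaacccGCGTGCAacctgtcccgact
MT1X: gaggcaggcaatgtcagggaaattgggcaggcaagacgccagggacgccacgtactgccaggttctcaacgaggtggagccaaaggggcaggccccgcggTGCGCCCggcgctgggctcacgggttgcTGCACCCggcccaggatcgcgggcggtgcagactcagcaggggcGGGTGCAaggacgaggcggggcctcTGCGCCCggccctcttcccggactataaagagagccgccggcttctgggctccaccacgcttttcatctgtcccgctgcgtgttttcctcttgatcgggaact
The MT2A window holds 8 matches and the MT1X window 4. Of the 8 promoters found for this list, 5 held a match (62.5%), compared with 29.4% of all promoters and 39.0% of those of the genes tested.

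Many genes of DNA replication and mitosis were called lower, and these counts shrank without single libraries. PCNA, the sliding clamp of DNA polymerases, was at 429.5 and 395 CPM in DMSO and 191 and 196 CPM after compound 5 (-1.09 ± 0.18, edgeR adjusted p = 0.00158). Of the subunits of the replicative helicase, GINS1 was at 54.4 and 53.1 CPM in DMSO against 23.8 and 26.9 CPM and GINS2 at 58.4 and 55.7 CPM in DMSO against 21.6 and 30.1 CPM. The helicase subunit MCM5 was at 286 and 282 CPM in DMSO against 146 and 175 CPM (-0.82 ± 0.14), while the loader CDC6 was not called (-0.33 ± 0.16). Both compound 5 samples lay below both controls in all of these genes, and no gene called had overlapping groups. Of 26 helicase and licensing genes, 15 were called lower and 0 higher (median -0.59), and without single libraries 10, 8, 7 and 12 were called lower. Of 29 polymerase and fork genes, 21 were called lower and 1 higher (median -0.59, and 10, 10, 8 and 15 lower without single libraries), with PRIM1 (primase) at -1.05 ± 0.15 and POLA2 (37.2% of its 31-base words shared) at -1.19 ± 0.23 on the log2 scale. Of 17 nucleotide supply genes, 9 were called lower and 1 higher (median -0.34, and 3, 5, 1 and 5 lower without single libraries).

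Among 28 cyclins, E2F and retinoblastoma genes, 14 were called lower and 1 higher (median -0.43, and 10, 7, 6 and 8 lower without single libraries). CDK1, the kinase of mitotic entry, was at 61.1 and 71.3 CPM in DMSO against 31.9 and 37.7 CPM (-0.93 ± 0.16, edgeR adjusted p = 0.00208), and E2F7, a repressor of the family, at 12.8 and 12.7 CPM in DMSO against 5.77 and 3.93 CPM. The gene called higher was CDKN2B (p15), an inhibitor of CDK4 and CDK6, at 0.689 and 0.658 CPM in DMSO and 5.22 and 3.61 CPM after compound 5 (2.69 ± 0.38, edgeR adjusted p = 8.18e-04). KIF20A, a kinesin of cytokinesis, was at 70.4 and 76.3 CPM in DMSO against 32 and 34.9 CPM (-1.13 ± 0.16, edgeR adjusted p = 8.16e-04), and KIF11, which separates the spindle poles, at 64.2 and 70.3 CPM in DMSO against 36.8 and 37.6 CPM (-0.85 ± 0.13). Of 28 mitotic kinesins and kinases, 23 were called lower and 0 higher (median -0.65), but this count depended on the samples, since 17, 10, 5 and 17 were called lower without single libraries. The kinase PLK1 (-0.60 ± 0.13) and TOP2A (-0.72 ± 0.14) lost their calls without compound 5 replicate 1 (edgeR adjusted p = 0.0785 and 0.0512). MKI67, the proliferation marker, was not called, at 185 and 271 CPM in DMSO against 193 and 160.3 CPM. Of 33 centromere, kinetochore and condensin genes, 24 were called lower and 0 higher (median -0.56, and 13, 8, 9 and 11 without single libraries), with CENPI at 14.5 and 17.8 CPM in DMSO against 6.6 and 6.75 CPM.

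A promoter of each kind is shown, GINS2 (chr16:85688905-85689204, minus strand) for its match to the E2F letters, TTTCCCGC or TTTGGCGC, and KIF11 (chr10:92592880-92593179, plus strand) for the cell cycle homology region TTTGAA, both from RefSeq on GRCh38.p14 with the matches on either strand in capitals.
GINS2: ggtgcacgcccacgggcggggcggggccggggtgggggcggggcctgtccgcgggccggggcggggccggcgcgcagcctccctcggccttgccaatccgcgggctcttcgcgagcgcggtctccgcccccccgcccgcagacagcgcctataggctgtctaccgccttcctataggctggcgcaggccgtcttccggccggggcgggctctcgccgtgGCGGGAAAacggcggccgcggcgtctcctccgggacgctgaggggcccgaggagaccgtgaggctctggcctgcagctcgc
KIF11: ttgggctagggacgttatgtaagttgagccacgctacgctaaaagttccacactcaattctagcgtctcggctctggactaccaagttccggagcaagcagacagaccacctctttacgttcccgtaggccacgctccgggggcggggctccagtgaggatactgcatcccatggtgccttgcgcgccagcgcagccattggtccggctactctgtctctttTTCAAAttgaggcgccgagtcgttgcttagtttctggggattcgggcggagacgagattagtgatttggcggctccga
Both matches lie on the opposite strand, 31 and 28 bases before the start. The E2F letters were found in 9 of 22 promoters of the helicase list (40.9%) and in 3.73% of those of the genes tested, and TTTGAA in 18 of 24 promoters of the mitotic list (75%) and in 9.6% of those of the genes tested.

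The p53 list did not move in one direction. CDKN1A (p21) was at 61.3 and 57 CPM in DMSO and 54.2 and 60.6 CPM after compound 5 (-0.04 ± 0.11, edgeR adjusted p = 0.801), and MDM2 at 189 and 179.7 CPM in DMSO against 195 and 185 CPM (0.04 ± 0.10, edgeR adjusted p = 0.772). The damage sensor DDB2 fell from 39.4 and 36.8 to 15.8 and 19.8 CPM, ferredoxin reductase (FDXR) from 66.3 and 64.7 to 28.7 and 33.1 CPM and SESN1 from 20.4 and 23 to 7.15 and 11 CPM. GADD45A rose from 47.5 and 55.5 to 87.7 and 96.4 CPM and PLK3, a stress kinase, from 9.94 and 9.45 to 34.1 and 48.7 CPM (2.10 ± 0.29). Of 25 tested members, 5 were called higher (BBC3, TNFRSF10B, GADD45A, GADD45B and PLK3) and 10 lower (median -0.26), and without single libraries 3, 4, 5 and 4 were called higher and 6, 7, 6 and 7 lower. Of 23 homologous recombination and checkpoint genes, 11 were called lower and 0 higher (median -0.50, and 8, 5, 5 and 8 without single libraries), with BRCA1 at 60.4 and 68.4 CPM in DMSO against 35.2 and 34.1 CPM. Among 22 cell death regulators, 8 were called higher and 2 lower (median 0.25), and 5, 4, 5 and 5 were called higher without single libraries and 5 with upper-quartile or library-size scaling. The death receptors TNFRSF10A and TNFRSF10B rose by 0.94 ± 0.13 and 0.83 ± 0.14 on the log2 scale, and so did MCL1, an inhibitor of apoptosis, from 143 and 144 to 323 and 401 CPM.

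Plasma carriers and acute-phase genes of the liver were called in shares near those over all genes tested (13.9% higher and 14.2% lower), and the factors that define hepatocytes were mostly not called. Of 20 plasma carrier and acute-phase genes, 2 were called higher (ITIH3 and HAMP) and 4 lower (AFP, TF, HP and AHSG, median -0.12). AFP was at 3486 and 3266 CPM in DMSO and 2049 and 2163 CPM after compound 5 (-0.68 ± 0.12, edgeR adjusted p = 0.00278), haptoglobin (HP) at 31.1 and 32.6 CPM in DMSO against 11.6 and 14.1 CPM, and albumin (ALB), the most abundant of them, at 18489 and 16375 CPM in DMSO against 13045 and 13614 CPM, which was not called (-0.39 ± 0.14, edgeR adjusted p = 0.0557). With upper-quartile scaling, 8 of these genes were called lower, and 2, 4, 2 and 3 without single libraries. ITIH3, an inter-alpha-trypsin inhibitor chain, moved up from 94.7 and 83.4 to 271 and 292 CPM (1.66 ± 0.11, edgeR adjusted p = 2.76e-05). Of 18 coagulation genes, 7 were called lower and 1, KNG1, higher (median -0.26, and 3, 7, 3 and 5 lower without single libraries), and SERPINF2, the inhibitor of plasmin, fell from 474 and 416 to 199 and 217 CPM. Of 22 complement genes, 4 were called higher (CFB, CD55, C5AR1 and MASP1) and 8 lower (median -0.28, and 3, 7, 4 and 4 lower without single libraries). CD55, which protects cells from complement, rose from 16.8 and 13.9 to 51.1 and 49.1 CPM, and C3 was not called (0.11 ± 0.11). Of 22 hepatocyte transcription factors, 4 were called higher (ONECUT2, NR0B2, ESRRA and PPARGC1A) and 2 lower (CEBPA and HHEX, median -0.03), and without single libraries 2, 3, 3 and 3 were called higher and 0, 1, 0 and 0 lower. HNF4A (-0.16 ± 0.10) and FOXA2 (-0.04 ± 0.12) were not called, and PPARGC1A, a coactivator of fasting metabolism, rose from 25.3 and 29.2 to 52.7 and 48.8 CPM. CEBPA was called lower (-0.45 ± 0.15), a call lost with the replicate block (edgeR adjusted p = 0.0505) and under every left-out library (lowest edgeR adjusted p = 0.0621, without compound 5 replicate 2).

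Many autophagy genes rose. SQSTM1 (p62), the receptor that carries ubiquitinated cargo, was at 337 and 310.3 CPM in DMSO and 1495 and 1467 CPM after compound 5. ULK1, the kinase that starts autophagosome formation, was at 24.1 and 24 CPM in DMSO against 61.5 and 61.8 CPM (1.36 ± 0.13, edgeR adjusted p = 1.34e-04), and GABARAPL1, a membrane anchor of the same process, at 11.9 and 10.0 CPM in DMSO against 29.6 and 29.1 CPM. ATG10 fell from 4.92 and 5.59 to 1.92 and 1.81 CPM. Of 37 autophagy genes, 20 were called higher and 1 lower (median 0.46, and 11, 13, 11 and 12 higher without single libraries), and of 36 lysosome and V-ATPase genes 8 higher and 1 lower (median 0.20, and 5, 4, 4 and 6 higher without single libraries, but 12 with DESeq2 and 16 with only the DMSO and compound 5 samples in the fit). TFE3, a factor of lysosome genes, rose by 0.82 ± 0.14 and the protease CTSL by 1.04 ± 0.13. Proteasome genes were nearly flat, with 0 of 32 called higher and 1 lower (median -0.10), and the gene called was their activator NFE2L1 (-0.56 ± 0.11), a call lost without compound 5 replicate 2 (edgeR adjusted p = 0.0552). With library-size scaling 6 proteasome genes were called lower. Heat shock chaperones were also near 0, with 2 of 19 (HSF1 and HSPA9) called higher and 0 lower (median 0.10, and 0, 1, 2 and 1 higher without single libraries), but 3 were called lower with upper-quartile scaling, with library-size scaling and with only the DMSO and compound 5 samples in the fit. HSPA1B (-0.41 ± 0.16, with 74.4% of its 31-base words shared) and DNAJB1 (0.13 ± 0.12) were not called.

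Among genes of hypoxia and glycolysis, 50% were called lower and 21.4% higher, where 14.2% and 13.9% of all genes tested were. Of 28 hypoxia targets and glycolysis genes, 14 were called lower and 6 higher (median -0.32), and without single libraries 9, 8, 6 and 10 were called lower. CA9, a carbonic anhydrase that marks hypoxic cells, was at 46.7 and 36.8 CPM in DMSO and 18.6 and 16.2 CPM after compound 5 (-1.26 ± 0.18, edgeR adjusted p = 9.01e-04), and EGLN3, a prolyl hydroxylase of HIF, at 39.6 and 34.4 CPM in DMSO against 16.5 and 18.5 CPM. HK1, a hexokinase that is low in hepatocytes, rose from 2.17 and 2.63 to 10.3 and 7.14 CPM and PFKP, a phosphofructokinase, from 6.01 and 5.42 to 11.9 and 10.5 CPM. Of 12 gluconeogenesis and urea cycle genes, 4 (PCK2, ASS1, NAGS and TAT) were called higher and 2 (CPS1 and GLS2) lower (median 0.04, and 3, 2, 2 and 2 higher without single libraries), with NAGS, which makes the activator of the urea cycle, at 6.89 and 5.26 CPM in DMSO against 24.1 and 24.6 CPM and PCK1 not called (0.34 ± 0.14). The call of TAT was lost without each of the 4 libraries, with DESeq2 (adjusted p = 0.125) and with upper-quartile and library-size scaling, and that of PCK2 was kept only without DMSO replicate 1. Of 33 nuclear genes of the respiratory chain, 7 were called lower (21.2%, against 14.2% of all genes tested) and 0 higher (median -0.19, and 0, 4, 0 and 3 without single libraries). Of the 13 mRNAs of the mitochondrial genome, 1, MT-CYB, was called higher (1458 and 1537 CPM in DMSO against 2897 and 2335 CPM, 0.80 ± 0.12) and the median was 0.02. Cytosolic ribosomal proteins and elongation factors stood near 0, with a median of 0.05 over 44 genes, of which only EEF2 was called (0.44 ± 0.10), but not without DMSO replicate 2 (edgeR adjusted p = 0.0646), compound 5 replicate 1 (0.0503) or compound 5 replicate 2 (0.0537).

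Of 22 genes of the cytoskeleton and epithelial state, 11 were called higher and 1 lower (median 0.28, and 8, 7, 6 and 8 higher without single libraries). The integrin ITGA2 was at 139 and 162 CPM in DMSO and 451 and 348 CPM after compound 5 (1.40 ± 0.22, edgeR adjusted p = 0.00144), the actin crosslinker FLNA at 532 and 574 CPM in DMSO against 1242 and 1066 CPM, and the keratin KRT23 at 57.8 and 42.4 CPM in DMSO against 135 and 111 CPM. Of 14 named long noncoding RNAs, 5 (UCA1, NEAT1, LUCAT1, MIR22HG and CYTOR) were called higher and 0 lower (median 0.23). The call of NEAT1 was lost with DESeq2 (adjusted p = 0.0536) and kept only without compound 5 replicate 2 among the left-out libraries. LUCAT1 was at 1.77 and 2.88 CPM in DMSO against 13.1 and 11.9 CPM (2.40 ± 0.28), and MIR22HG, the host transcript of miR-22, at 4.33 and 4.6 CPM in DMSO against 14.3 and 13.2 CPM. Of 93 transcription factor genes written for a separate list, 89 were tested, 38 were called higher and 10 lower, where 13.9% and 14.2% of all genes tested were. Without single libraries 28, 28, 29 and 28 were called higher and 5, 4, 3 and 3 lower, and with upper-quartile or library-size scaling 15 were called lower. EGR1, DDIT3 and MXD1 rose most among them. MXD1, an antagonist of MYC, rose from 11.1 and 11.9 to 52.6 and 60.3 CPM (2.29 ± 0.27), and MYC itself from 274 and 265 to 445 and 504 CPM. KLF4 rose by 1.94 ± 0.34 on the log2 scale. Among the factors that fell, E2F7 had the lowest value.

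Of the single calls against the main direction of a list, those of PLIN2, CDKN2B, KNG1, UGT2B4 and ATG10 were kept without each of the 4 libraries, as was the 1 lower call of the lysosome list, and others were lost. With at least 10 counts required in every sample, CDKN2B and KNG1 were not tested, and 0 members of the cyclin and coagulation lists were called higher. Genes named to fill a count of 5 or fewer were chosen after their values were seen. POLD4, a small subunit of DNA polymerase delta called higher, and CDH1 (E-cadherin), called lower, lost their calls without each of the 4 libraries, and so did CASP9, IRF1 and ERBB2, the partners of BIRC3 and KLB among the members called lower. COPG2, a COPI subunit called lower, lost its call without DMSO replicate 2, and NPC1 and ACSL3, called higher, without DMSO replicate 1 and without compound 5 replicate 1. GART, a purine synthesis enzyme called higher, kept its call only without compound 5 replicate 1, NR1H2 (LXR beta) only without DMSO replicate 1 and PIR, called lower beside HMOX1, only without DMSO replicate 2. SMAD6, called lower, kept its call only without DMSO replicate 2, and ID2 lost it each time. CPS1 and SLC22A9 lost their calls without DMSO replicate 2 and without compound 5 replicate 1. CFB lost its call without each library, with the replicate block and with upper-quartile and library-size scaling, and ESRRA lost it without each library. Among these fits BBC3 was called only without compound 5 replicate 1, HHEX only without DMSO replicate 2, and HSF1 only without compound 5 replicate 1. SLC27A5 was called only without DMSO replicate 2. ONECUT2, HSPA9 and GADD45B lost their calls without DMSO replicate 1, and SLC30A10 without compound 5 replicate 1. With upper-quartile or library-size scaling, 4 LXR targets and 4 hepatocyte transcription factors were called lower and 3 iron genes higher. With only the DMSO and compound 5 samples in the fit, 11 growth factor ligands and receptors, 5 plasma carriers and 4 PPAR alpha genes were called higher, and 7 plasma carriers, 5 proteasome genes and 4 hepatocyte transcription factors lower.

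Compound 5 was also set against compounds 4 and 6, in which a methylene group joins the phenol rings in place of the ethylidene group of compound 5 and the ring substituents differ (a tert-butyl and a methyl group in compound 4, a cyclohexyl and a methyl group in compound 6). These 2 pairs were compared at 24 h, with each compound at its own IC50, so that the concentrations were not matched and the values describe these exposures. Against compound 4, 926 genes were higher with compound 5 (6.91% of those tested) and 943 lower (7.04%), and against compound 6, 638 were higher (4.76%) and 691 lower (5.16%). Both counts moved with single libraries. Without DMSO replicate 1, DMSO replicate 2, compound 5 replicate 1, compound 5 replicate 2, compound 4 replicate 1 or compound 4 replicate 2, in this order, the calls against compound 4 numbered 1164, 1207, 111, 167, 2709 and 579 instead of 1869. Against compound 6, in the same order with its own replicates last, they numbered 856, 893, 143, 278, 211 and 1016 instead of 1329.

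The following genes were called against both compounds and kept these calls without any 1 of the 6 libraries. HERPUD1 was at 100.5 and 112 CPM under compound 4, 79.1 and 96.2 CPM under compound 6 and 236 and 248 CPM after compound 5, which was higher by 1.19 ± 0.12 and 1.46 ± 0.12 on the log2 scale (edgeR adjusted p = 0.00211 and 2.66e-04). PPP1R15A was higher by 1.74 ± 0.26 and 1.74 ± 0.26 and SLC3A2 by 1.25 ± 0.17 and 1.48 ± 0.17. CXCL8 was at 1.2 and 0.78 CPM under compound 4 and 1.46 and 2.55 CPM under compound 6, and IER3 and OSGIN1 were likewise higher with compound 5 than with either (IER3 by 1.11 and 1.25, OSGIN1 by 0.85 and 1.44). SLC51A stood at 8.29 and 10.4 CPM and 7.92 and 7.33 CPM under compounds 4 and 6, close to the DMSO samples, and compound 5 was higher by 2.00 ± 0.16 and 2.29 ± 0.17 (edgeR adjusted p = 8.03e-04 and 1.96e-04). KNG1 was at 0.428 and 0.312 CPM and 0.313 and 0.0823 CPM with these compounds, near its DMSO level and within a few counts of the floor. In the other direction, MIXL1, a homeobox gene of mesendoderm (chromosome 1, 226223618 to 226227054, GRCh38), was at 19.7 and 19.1 CPM in DMSO, 17.7 and 17.6 CPM under compound 4, 22.7 and 19.2 CPM under compound 6 and 3.94 and 4.79 CPM after compound 5 (edgeR adjusted p = 8.03e-04 and 1.96e-04). ARSI, a sulfatase, was at 29.8 and 24.9 CPM in DMSO, 24.5 and 20.9 and 23.9 and 17.3 CPM under compounds 4 and 6 and 6.69 and 6.2 CPM after compound 5. In all, 376 genes were higher and 348 lower with compound 5 than with DMSO, compound 4 and compound 6 alike. These counts depended on single libraries, with 41 and 13 without compound 5 replicate 1, 55 and 47 without compound 5 replicate 2, 92 and 69 without compound 6 replicate 1, and 211 to 507 and 147 to 381 without each of the other 5 libraries.

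Further calls held without any 1 of the 6 libraries against one of the compounds. MT1F was at 20.7 and 31 CPM under compound 4 and 10.0 and 11.9 CPM under compound 6, so that compound 5 lay above compound 6 (1.66 ± 0.20, edgeR adjusted p = 0.00199) and was not called against compound 4 (0.42 ± 0.19, edgeR adjusted p = 0.145). FDFT1 was lower with compound 5 than with compound 6 (203 and 137 CPM, -1.47 ± 0.19, edgeR adjusted p = 0.00296). Against compound 4 (90.4 and 112 CPM) the difference in FDFT1 was -0.73 ± 0.19 (edgeR adjusted p = 0.0344), a call that was kept without compound 4 replicate 1 and lost without each of the other 5 libraries. CYP3A4 was higher than with compound 6 (170.5 and 171 CPM, 1.22 ± 0.14, edgeR adjusted p = 0.00138) and than with compound 4 (287 and 216 CPM, 0.66 ± 0.13, edgeR adjusted p = 0.0148), the latter call being lost without either compound 5 replicate. CYP1A1 was lower with compound 5 than with compound 4 (69.2 and 62.1 CPM, -2.80 ± 0.26, edgeR adjusted p = 0.00142). Against compound 6 its difference was -1.30 (edgeR adjusted p = 0.0160), a call lost without either compound 5 replicate and without compound 6 replicate 2. The replication gene MCM5 was called against neither, with differences of -0.19 ± 0.14 and -0.28 ± 0.14.

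**Figure D5:**
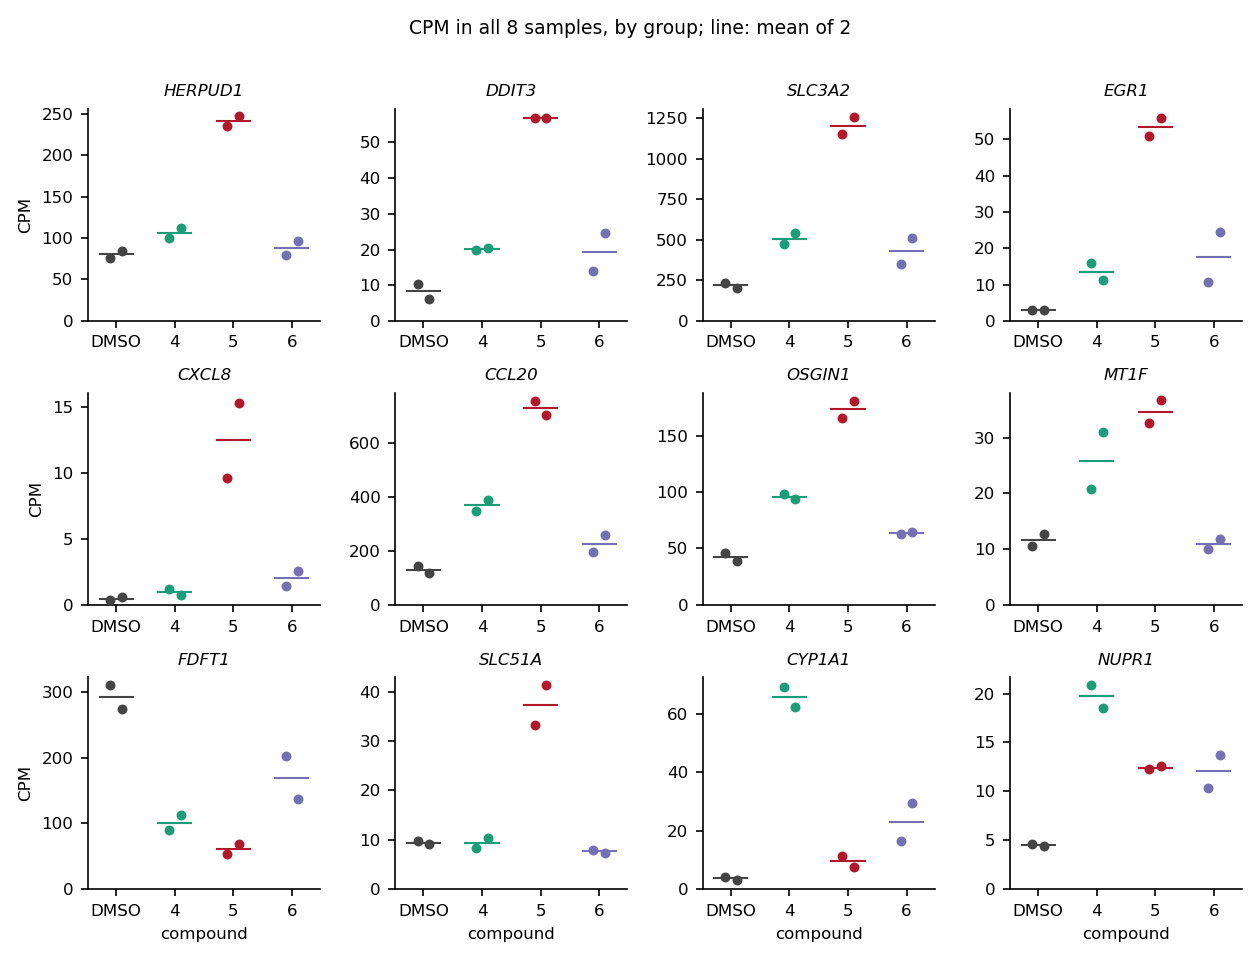
CPM of 12 genes in all 8 samples, grouped as DMSO and compounds 4, 5 and 6 (points are samples, lines the mean of 2), each panel on its own linear axis from 0. The compound 5 samples are the highest for HERPUD1, DDIT3, SLC3A2, EGR1, CXCL8, CCL20, OSGIN1 and SLC51A and the lowest for FDFT1, whereas CYP1A1 is highest with compound 4.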

How the data were processed

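CYP3A4-overexpressing HepG2 cells were exposed to compound 5 or DMSO for 24 h (2 samples each) and isolated mRNA was sequenced, with 9955207 to 13308975 counts per library. The deposited table holds estimated counts per gene, which the authors made from FastQC-checked reads (FastQC 0.12.0) with Salmon 1.5.0 and the GENCODE annotation and summed over transcripts, without normalization. The authors' own test used DESeq2 1.38.3, whose results were not used here. Estimated counts divide reads of similar transcripts among genes, so members of close families are uncertain. The share of 31-base words found in other genes was computed for genes named by rule. It was not obtained for C8orf44-SGK3 or for genes named outside the rules.

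Counts were used as deposited, and 13404 of 60230 genes were kept by the edgeR filter on low counts. All 8 samples entered 1 model with 4 groups (TMM scaling), and contrasts were computed by quasi-likelihood F tests in edgeR 4.0.16 with limma 3.58.1 in R 4.3.3. Genes with a Benjamini-Hochberg adjusted p under 0.05 over all genes tested are termed called, higher or lower. The standard error (SE) was taken as the absolute log2 fold change divided by the square root of F. The scripts were tested on simulated data. Symbols were found for 41718 genes. Coordinates came from an older GENCODE release on GRCh38 than that of the counts and promoters from RefSeq on GRCh38.p14.

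Groups came from the sample labels. The labels number the replicates by day, but do not say whether a day was shared between treatments. The correlation of the deviations of same-numbered samples from their group means was 0.032 for compound 5 with DMSO, 0.218 with compound 4 and -0.0344 with compound 6. The samples and the gene lists were chosen with earlier results of these data known. Genes were named by rule. The first were the 10 highest and 10 lowest changes among called genes averaging 1 CPM or more, with groups that did not overlap. Added were the 5 largest rises and falls in CPM, CYP3A4, marked members and up to 5 called members of each list. Listed transcription factors were named too, and the 5 highest and 5 lowest genes set apart from both other compounds, again without overlap. Alternatives were DESeq2 1.42.0, RLE, upper-quartile and library-size scaling, no filter or a filter of 10 counts per sample, a replicate block, only the DMSO and compound 5 samples, a cutoff of 0.01, a test against a fold of 1.2, and leaving out each replicate. Some genes are not reported here.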

Additional observations from a re-analysis of the deposited data

How the results depend on the processing

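For compound 5 versus DMSO, 1750 of the 1857 genes called higher and 1781 of the 1906 called lower were also called with the replicate block, and no called gene changed sign under any setting tried. DESeq2 called 1202 genes lower. A cutoff of 0.01 left 976 higher and 833 lower, and a test against a fold of 1.2 left 1070 and 1060. With only the DMSO and compound 5 samples in the fit, 2753 genes were called higher and 2374 lower of 12966 tested. Leaving out a replicate gave 894 to 1123 genes higher and 704 to 1016 lower. Library-size scaling moved the median log2 fold change of all genes by -0.105. Against compound 4, 1869 genes became 2812 without the filter, 279 at the cutoff of 0.01 and 111 to 2709 without 1 replicate. Against compound 6, 1329 became 2117, 282 and 143 to 1016. Leaving out the replicates of compounds 4 and 6 was chosen after seeing the data. With the replicate block these counts were 1636 and 1224. Of the genes named by rule, 7 lost their call against DMSO with the block (ABCA1, CEBPA, FTL, IRF1, MYBL2, RPS26P19 and U2AF1), as did CASP9 and CFB, named to fill a count. DESeq2 ended 16 of the calls named, and leaving out DMSO replicate 1, DMSO replicate 2, compound 5 replicate 1 or compound 5 replicate 2 ended 63, 48, 75 and 46, with no direction turned. With 2 samples a group, a gene that was not called may still differ, and a fit without a replicate has fewer residual degrees of freedom.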

Other observations

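Both ribosomal RNAs of the mitochondrial genome were higher with compound 5. The libraries were made from isolated mRNA, and how evenly they retained ribosomal RNA was not tested. MT-RNR2 (16S) stood at 9692 and 10150.5 CPM in DMSO and 18214 and 21399.6 CPM after compound 5 (1.00 ± 0.17, edgeR adjusted p = 0.00237), the largest gain in CPM of any gene called. MT-RNR1 (12S) stood at 2057 and 1939 CPM and 4428 and 4152 CPM (1.10 ± 0.10, edgeR adjusted p = 9.66e-05), and it was also higher than with compounds 4 and 6, by 0.84 ± 0.10 and 0.76 ± 0.10 (edgeR adjusted p = 0.00344 and 0.00247). Against compound 4, MT-RNR2 differed by 0.61 ± 0.17 (edgeR adjusted p = 0.0416), a call lost without each of the 6 libraries, and against compound 6 it was not called (0.53 ± 0.17, edgeR adjusted p = 0.0783). Of the 31-base words of MT-RNR2, 32.4% also occur in other genes. Of the 13 mitochondrial mRNAs, 12 were not called.

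Long noncoding RNAs were called lower in 121 of 984 cases (12.3%) and higher in 41 (4.17%), with a median log2 fold change of -0.34. Protein-coding genes gave 1749 of 11802 lower (14.8%) and 1788 higher (15.2%), with a median of -0.02. At an average of 3 CPM or more, 65 of 342 long noncoding RNAs were called lower (19%) and 30 higher (8.77%), with a median of -0.17, and protein-coding genes 15.4% and 16.3%, with a median of 0.00. The difference between the classes was not tested.

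Some genes had counts in one group only. Of all genes in the table, 4 had 0 counts in both DMSO samples and at least 10 in both compound 5 samples, and 7 showed the reverse. Several of the lowest fitted values belong to transcripts that share their sequence with other genes. The pseudogene RPS26P19, with all of its 31-base words shared, had no count after compound 5 (at least 16-fold lower, with 3 counts over the group as the floor), and the read-through transcript INO80B-WBP1 (97.1% shared) stood at 7.97 and 1.81 CPM in DMSO and 0 and 0.55 CPM after compound 5. SULT1A4 (98.1% shared) stood at 47.9 and 18.2 CPM and 3.94 and 4.71 CPM, and RDH5 (62.7% shared), a retinol dehydrogenase, at 2.46 and 1.15 CPM and 0.0917 and 0.314 CPM. In DESeq2 the calls of RPS26P19 (adjusted p = 0.218), INO80B-WBP1 (0.121) and SULT1A4 (0.0687) were lost. RPS26P19 also lost its call with the replicate block and without each of the 4 libraries, SULT1A4 kept it only without DMSO replicate 2, and INO80B-WBP1 and RDH5 lost it without DMSO replicate 1 and without compound 5 replicate 1.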
